A study of Mus musculus with 21 samples.

Results

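Signalling through the EGF receptor family was followed in 10 genes, 6 ligands and 4 receptors, out of 54123 genes in the tables. The ligands were Egf, Hbegf, Areg, Ereg, Tgfa and Btc. The receptors were Egfr, Erbb2, Erbb3 and Met. The genes were taken by name. RNA-Seq libraries had been made from neutrophils (polymorphonuclear neutrophils, PMNs; labelled as blood) and from tubular epithelial cells (TECs; labelled as kidney) of wild-type mice, which per the study's methods were C57BL/6 males of 8 to 12 weeks. Cells were isolated 24 hours after surgery. Surgery was either ischemia/reperfusion injury (IRI), with both renal pedicles clamped for 32 minutes, or a sham operation in which no clamp was placed. Before surgery the mice underwent remote ischemic preconditioning (RIPC) with a hind limb cuff, or a control procedure at a cuff pressure that left the limb perfused. All groups shared the wild-type genotype and an operation, and no group was unoperated. The 21 libraries formed 8 groups. PMNs were represented by 2 sham control, 3 sham RIPC, 2 IRI control and 3 IRI RIPC libraries, and TECs by 3, 3, 2 and 3 libraries in the same order. The study describes its libraries as biological replicates, while the labels name no mice, and p-values measure the spread between these libraries.

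Ligands of the EGF family are made as membrane-anchored precursors, and metalloproteases such as ADAM17 release them from the cell surface. Egf, Areg and Tgfa bind the receptor encoded by Egfr, whereas Hbegf, Ereg and Btc also bind Erbb4. Erbb2 encodes a receptor without a known ligand that pairs with the other family members, and Erbb3 encodes a neuregulin receptor with little kinase activity of its own. Met encodes the receptor of hepatocyte growth factor (Hgf). In the kidney Egf is known as a product of the thick ascending limb and the distal convoluted tubule, where Umod (uromodulin) is also made. Egfr and Met are known for their part in tubular repair.

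Promoter sequences (RefSeq, GRCm38.p6, 250 bases before to 50 bases after the annotated start) were at hand for 7 of the 10 genes. They are shown for Areg, Egfr and Egf. Areg is a ligand whose reads lay almost entirely in PMN libraries. Ereg, another such ligand, had no promoter sequence at hand. Egfr is the receptor of the ligands, and Egf is the ligand with reads in every library. The Areg window spans chr5:91139349-91139648 on the plus strand, the Egfr window chr11:16751953-16752252 on the plus strand and the Egf window chr3:129755273-129755572 on the minus strand. Capitals mark matches to 3 motifs on either strand. The cyclic AMP response element (CRE) was searched as TGACGTCA. The TATA box was searched as TATAAA. The GC box was searched as GGGCGG.
Areg: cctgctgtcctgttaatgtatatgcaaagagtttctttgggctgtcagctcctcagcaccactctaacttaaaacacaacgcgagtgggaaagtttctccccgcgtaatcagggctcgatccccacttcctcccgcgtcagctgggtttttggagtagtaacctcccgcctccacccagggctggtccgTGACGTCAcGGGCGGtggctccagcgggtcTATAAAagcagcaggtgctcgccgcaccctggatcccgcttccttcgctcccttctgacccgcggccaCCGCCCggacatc
Egfr: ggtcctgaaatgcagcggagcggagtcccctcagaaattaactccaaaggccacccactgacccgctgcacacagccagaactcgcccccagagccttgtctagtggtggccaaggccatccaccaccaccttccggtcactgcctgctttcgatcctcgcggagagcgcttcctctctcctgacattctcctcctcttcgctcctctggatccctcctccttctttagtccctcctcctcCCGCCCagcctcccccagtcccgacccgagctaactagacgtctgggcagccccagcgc
Egf: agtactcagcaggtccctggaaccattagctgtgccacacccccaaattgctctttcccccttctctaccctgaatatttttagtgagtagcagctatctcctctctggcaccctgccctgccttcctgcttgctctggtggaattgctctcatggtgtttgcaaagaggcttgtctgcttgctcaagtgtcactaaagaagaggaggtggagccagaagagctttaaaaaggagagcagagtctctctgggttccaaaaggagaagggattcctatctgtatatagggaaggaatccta
The Areg window held a CRE at position -61 and a TATA box at position -31, counted from the annotated start as 0, and 2 GC boxes. The Egfr window held 1 GC box and neither of the other motifs, and the Egf window held none of the 3. Of 32851 windows of this length, 1.79% held the CRE, 13.6% the TATA box and 35.7% the GC box. The AP-1 motif TGANTCA, searched in the same way, was present in 7.81% of all windows and in none of the 3 shown. A match in letters is a description of the sequence and not evidence of binding.

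Library sizes ranged from 20881334 to 30507235 reads in PMNs and from 21479605 to 51624602 reads in TECs, each the sum of 2 files. The files of a library were close to copies of each other. Over genes with at least 100 reads, the median of their squared difference divided by their sum was 0.0332 to 0.122 times that of independent counts. A gene at 0 could therefore be present at up to 3 counts in each file, or 6 added reads, which is 0.15 to 0.311 CPM (counts scaled to a common library size). These limits cover counting error only. Markers of neutrophils (7 genes) summed to between 5873.7 and 31604.3 CPM in PMN libraries and to between 1.62 and 108.9 CPM in TEC libraries. PMN libraries also held transcripts of other cells. Monocyte and macrophage markers (7 genes) summed to between 2692.6 and 7380.4 CPM in PMNs after sham surgery and to between 962.1 and 1790.3 CPM after IRI, against 3.22 to 42.9 CPM in TECs. Markers of the proximal tubule (8 genes) summed to between 243.6 and 2460.7 CPM in PMNs after sham surgery and to between 157.4 and 235.8 CPM after IRI, and in TECs to between 4166.9 and 9020.5 CPM after sham surgery and between 644.8 and 4583.9 CPM after IRI. No defining gene of the neutrophil, monocyte and macrophage, proximal tubule or thick ascending limb list was at 0 in every PMN library. Replicate 2 of the PMN sham control group stood apart, with 4458.9 CPM of Umod. Replicate 1 of the TEC sham control group also stood apart, with tubular injury markers (7 genes) at 9774.2 CPM against 1006.6 to 2389.6 CPM in the other TEC libraries after sham surgery. Replicate 3 of the TEC IRI RIPC group stood apart from the other TEC libraries after IRI, with proximal tubule markers at 4583.9 CPM against 644.8 to 1417.0 CPM, tubular injury markers at 4620.0 CPM against 10025.5 to 16321.8 CPM, and the highest Hbegf, Egfr and Met of that group of libraries. In these bulk libraries fewer cells of a type and less RNA per cell cannot be told apart.

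Levels per length, as the length-scaled TPM values deposited by the authors and summed over a gene's transcripts, were compared between genes. In TECs the order of the medians was Hbegf (17.6 TPM, range 6.61 to 64.2), Egf (9.14 TPM, range 3.37 to 32.5), Egfr (3.31 TPM, range 0.423 to 11.0), Erbb2 (2.85 TPM, range 0.203 to 7.0), Met (2.7 TPM, range 0.816 to 8.99) and Erbb3 (2.37 TPM, range 0.62 to 9.26). Tgfa, Btc, Areg and Ereg had medians of 1.29 TPM, 0.158 TPM, 0 and 0. The ranges of all neighbours in this order overlapped. In PMNs Egf had the highest median (6.22 TPM, range 0.672 to 207.2), followed by Areg (2.37 TPM, range 0 to 19.2), Met (0.698 TPM, range 0 to 9.4) and Hbegf (0.695 TPM, range 0 to 7.42). The medians of Erbb2, Egfr, Erbb3 and Btc in PMNs were 0.182, 0.11, 0.0964 and 0.0263 TPM, and those of Ereg and Tgfa were 0. These neighbours overlapped as well.

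The TPM of a gene depends on how its reads were shared among transcripts. In PMNs Egf-201, the longest Egf transcript (4761 bases), took 0 to 70.8% of Egf reads (median 2.56%, n = 10). The retained-intron transcript Egf-203 (667 bases) took up to 100% of Egf reads in a PMN library. Egfr-201, the longest Egfr transcript (10208 bases), took 32.4% to 99.7% of the reads of the gene in single TEC libraries. The shorter protein-coding transcript Egfr-202 (2943 bases) took 0.346% to 67.6%, and it exceeded 10% in 9 of 11 TEC libraries. In the 2 PMN libraries with at least 100 Egfr reads it took 0 and 9.65%, too few libraries for a comparison. The Met transcript Met-203 took 58.0% to 100% of Met reads in TECs. In the 5 PMN libraries with at least 100 Met reads it took 7.29% to 100%, and there the retained-intron transcript Met-205 took up to 88.2%. All further values are CPM over the whole gene.

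Among the receptors, Egfr (chr11:16752203-16918158, plus strand, Gencode annotation of GRCm38) had 69.9, 18.6 and 24.0 CPM in TECs of the sham control group and 22.3, 61.4 and 49.3 CPM in the sham RIPC group. After IRI it had 23.2 and 33.8 CPM in the control group and 4.69, 42.4 and 71.6 CPM in the RIPC group. PMN libraries held less. Egfr was at 1.87 and 2.15 CPM in sham control, at 2.18, 1.5 and 15.0 CPM in sham RIPC, at 2.13 and 1.41 CPM in IRI control, and at 19.0, 4.36 and 1.27 CPM in IRI RIPC PMNs. After sham surgery every TEC library lay above every PMN library, and after IRI replicate 1 of the TEC IRI RIPC group fell among the PMNs.

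Erbb2 (chr11:98412470-98437716, plus strand) averaged 37.7 CPM in TECs after sham surgery (range 8.71 to 63.0, n = 6) and 21.6 CPM after IRI (range 1.92 to 50.5, n = 5). In PMNs it had 2.44 and 40.2 CPM in sham control, 5.25, 0.866 and 9.34 CPM in sham RIPC, 0.384 and 0 CPM in IRI control, and 0, 9.16 and 0 CPM in IRI RIPC libraries. The highest PMN value came from replicate 2 of the sham control group, the library with the highest Umod. Erbb3 (chr10:128567523-128589652, minus strand) averaged 54.1 CPM in TECs after sham surgery (range 7.98 to 144.4) and 23.1 CPM after IRI (range 10.8 to 37.1). In PMNs it was at 15.9 and 2.82 CPM in sham control, at 0, 0.273 and 14.9 CPM in sham RIPC, at 0 and 1.96 CPM in IRI control, and at 0, 0 and 2.3 CPM in IRI RIPC libraries. After IRI no PMN library reached the lowest TEC library for Erbb3.

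Met (chr6:17463800-17573980, plus strand) had 0.163 and 20.3 CPM in PMN sham control, 0, 12.7 and 3.79 CPM in sham RIPC, 8.15 and 28.7 CPM in IRI control, and 35.5, 0 and 2.99 CPM in IRI RIPC libraries. In TECs it ranged from 18.8 to 72.3 CPM after sham surgery and from 11.8 to 91.7 CPM after IRI. The ranges of PMNs and TECs overlapped after both operations.

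Among the ligands, Hbegf (heparin-binding EGF-like growth factor; chr18:36504927-36515805, minus strand) had reads above the limit in every TEC library and in 6 of 10 PMN libraries. In TECs it was at 194.2, 33.4 and 109.1 CPM in sham control, at 31.3, 90.1 and 75.4 CPM in sham RIPC, at 125.5 and 78.7 CPM in IRI control, and at 118.4, 33.9 and 427.7 CPM in IRI RIPC libraries. In PMNs it was at 0.65 and 0 CPM in sham control, at 0, 4.83 and 0.0519 CPM in sham RIPC, at 0.0427 and 7.56 CPM in IRI control, and at 37.0, 37.5 and 7.01 CPM in IRI RIPC libraries. After sham surgery the lowest TEC library lay above the highest PMN library. After IRI 2 PMN libraries of the RIPC group lay just above the lowest TEC library.

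Areg (amphiregulin; chr5:91139599-91148432, plus strand) had the opposite distribution. It was at 0 in 10 of 11 TEC libraries, and the other held 13 reads, or 0.489 CPM. In PMNs Areg was at 0 in both sham control libraries, at 4.21, 22.9 and 0 CPM in sham RIPC, at 1.54 and 14.5 CPM in IRI control, and at 29.4, 12.0 and 3.03 CPM in IRI RIPC libraries. It exceeded the limit set by a count of 0 in 7 of 10 PMN libraries. Basophil and mast cell markers (4 genes) summed to at most 7.73 CPM in PMN libraries, and lymphocyte markers (6 genes) to between 7.34 and 69.3 CPM. Replicate 2 of sham RIPC, with 22.9 CPM of Areg, had the highest lymphocyte sum and the highest monocyte and macrophage sum, 7380.4 CPM. Replicate 1 of IRI RIPC, with the highest Areg, had 21.8 CPM of lymphocyte markers. The part of the transcripts of any of these cells in the Areg values was not tested. Areg, Ereg and Btc lie near each other on chromosome 5. Ereg (epiregulin; chr5:91074622-91093646, plus strand) was at 0 in all 11 TEC libraries and above the limit in 4 of 10 PMN libraries, with 1.24 CPM in replicate 1 of sham RIPC, 2.09 and 0.274 CPM in IRI control and 10.7 CPM in replicate 2 of IRI RIPC.

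**Figure D1:**
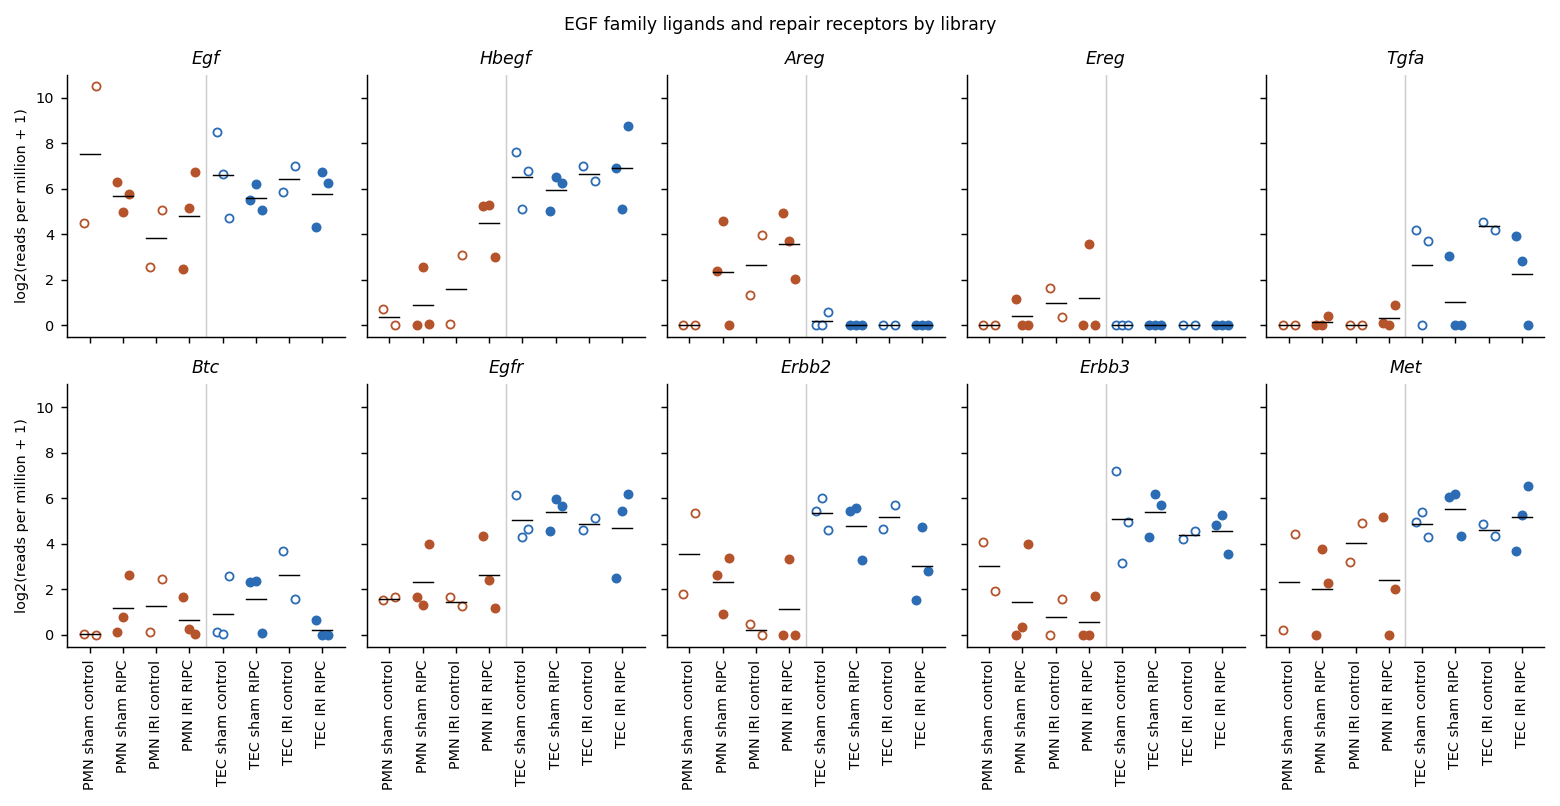
Each panel plots 1 gene, with log2(CPM + 1) on the y axis and the 8 groups on the x axis. Points are libraries (open, control; filled, RIPC; orange, PMNs; blue, TECs) and bars are group means. Hbegf and Egfr libraries of PMNs lie below those of TECs after sham surgery, whereas Areg is at 0 in 10 of 11 and Ereg in 11 of 11 TEC libraries.

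Egf (chr3:129677565-129755316, minus strand) was read in all 21 libraries. In TECs it had 360.1, 98.3 and 25.3 CPM in sham control, 44.5, 73.0 and 32 CPM in sham RIPC, 57.6 and 128.3 CPM in IRI control, and 18.6, 105.8 and 76.1 CPM in IRI RIPC libraries. In PMNs it had 21.8 and 1435.2 CPM in sham control, 77.0, 30.2 and 54.1 CPM in sham RIPC, 4.91 and 32.7 CPM in IRI control, and 4.57, 34.3 and 104.7 CPM in IRI RIPC libraries. The highest value of the series was thus in a PMN library, replicate 2 of sham control. That library also had the highest Umod level. Egf amounted to 17.1 to 71.6 reads per 100 Umod reads in TECs (median 33.1, n = 11) and to 3.82 to 82.2 in PMNs (median 21.8, n = 10), and in the library with 1435.2 CPM of Egf the ratio was 32.2. The part of tubular transcripts in the Egf values of PMNs was not tested.

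**Figure D2:**
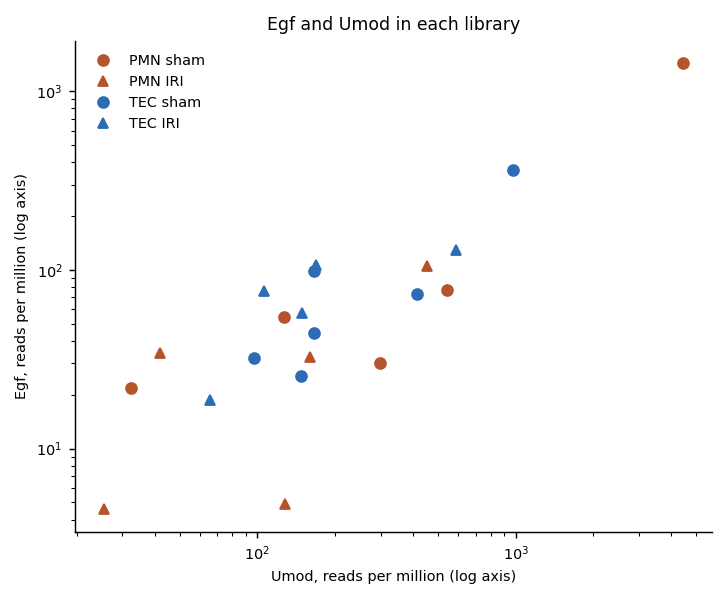
Egf (y axis) and Umod (x axis), both in CPM on log axes, in the 21 libraries (circles, sham surgery; triangles, IRI; orange, PMNs; blue, TECs). Egf reads per 100 Umod reads range from 3.82 to 82.2 in PMN and from 17.1 to 71.6 in TEC libraries. The point at the top right is replicate 2 of the PMN sham control group, with 1435.2 CPM of Egf and 4458.9 CPM of Umod.

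Tgfa (transforming growth factor alpha; chr6:86195223-86275719, plus strand) was above the limit in 7 of 11 TEC libraries and in 1 of 10 PMN libraries. In TECs it was at 17.4, 0 and 12.1 CPM in sham control, at 7.21, 0 and 0 CPM in sham RIPC, at 22.5 and 17.0 CPM in IRI control, and at 14.1, 6.01 and 0 CPM in IRI RIPC libraries. It was thus split between libraries of the same group, at 0 in 4 of 11. Btc (betacellulin; chr5:91357261-91402994, minus strand) ranged from 0 to 11.8 CPM in TECs and from 0 to 5.19 CPM in PMNs, and was above the limit in 6 of 11 and 4 of 10 libraries.

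PMNs and TECs were compared within each operation by edgeR's quasi-likelihood test, fitted to all 8 groups, with Benjamini-Hochberg adjustment over 31769 genes. After sham surgery Hbegf was lower in PMNs, at 1.11 ± 2.1 CPM (SD, n = 5) against 88.9 ± 60.1 CPM in TECs (n = 6), a log2 fold change of -6.86 (SE 1.66, adjusted p = 0.0277). It was the 1 gene of the 10 past an adjusted p of 0.05, where 2.62% of all genes tested were called and 1.13% were called lower in PMNs. Of 21 fits that left out 1 library, those without a library after IRI kept all libraries of this comparison. The call was kept in 19 of the 21 fits. It was lost without replicate 2 of PMN sham control (log2 fold change -6.40, adjusted p = 0.0656) and without replicate 2 of TEC sham control (log2 fold change -7.08, adjusted p = 0.0515). The log2 fold change was -9.95 without replicate 1 of PMN sham control and -9.84 without replicate 2 of PMN sham RIPC. Egfr averaged 4.55 ± 5.88 CPM in PMNs and 40.9 ± 22.2 CPM in TECs, a log2 fold change of -3.52 (SE 1.02, adjusted p = 0.0721), which missed the threshold. With single libraries left out the adjusted p for Egfr ranged from 0.0256, without replicate 3 of PMN sham RIPC, which had the highest Egfr of these PMN libraries, to 0.243. Hbegf and Egfr were the 2 of 10 genes whose PMN libraries all lay below all TEC libraries, against 3.75% of all genes.

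The other receptors also had lower means in PMNs after sham surgery, with log2 fold changes of -1.83 for Erbb2 (adjusted p = 0.538), -2.96 for Erbb3 (adjusted p = 0.34) and -2.4 for Met (adjusted p = 0.387), none past the threshold in edgeR's test. For Egf the log2 fold change of PMNs over TECs was 1.14 (SE 0.878, adjusted p = 0.537). It became -1.44 without replicate 2 of PMN sham control. The direction for Egf thus rested on the library with the highest Umod. The 3 genes at an unadjusted p under 0.05, where 17.5% of all genes were, were Hbegf, Egfr and Tgfa. Tgfa passed the filter on low counts in this fit only through TEC libraries, so its values here are a description. The Wald test of DESeq2 called the same 3 genes. It also called many more of all genes than edgeR's test did, in counts given below. Its calls are therefore not results about these genes.

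After IRI no gene of the 10 passed an adjusted p of 0.05 in edgeR's test, where 2.67% of all genes did. At an unadjusted p under 0.05 there were 7 genes, against 14.4% of all genes. They were Erbb3, Egfr, Hbegf, Ereg, Areg, Tgfa and Erbb2. The Wald test of DESeq2 called 6 of the 10. It also called many more of all genes than edgeR's test did, in counts given below. That count is therefore not a result about the 10 genes. Areg averaged 12.1 ± 11.2 CPM in PMNs (n = 5) and was at 0 in all 5 TEC libraries, so that it was at least 47.4-fold higher in PMNs when the TEC group was set to the limit of 6 added reads per library (adjusted p = 0.0628). Whether its adjusted p passed changed with the library left out. This was so also for libraries after sham surgery, which are not part of this comparison. The adjusted p of Areg was 0.0425 with RIPC and control libraries pooled, a fit added after the data had been seen. Areg and Ereg passed the filter on low counts in this fit only through PMN libraries, and Tgfa only through TEC libraries. The values of these genes here are therefore a description. Areg was the 1 gene of the 10 whose PMN libraries all lay above the TEC libraries (3.94% of all genes). Erbb3 was the 1 gene whose PMN libraries all lay below them (2.94% of all genes), at 0.851 ± 1.17 CPM in PMNs and 23.1 ± 9.97 CPM in TECs, a log2 fold change of -4.69 (SE 1.82, adjusted p = 0.24). With single libraries left out the adjusted p for Erbb3 ranged from 0.0402, without replicate 3 of PMN IRI RIPC, the 1 library of that group with Erbb3 reads, to 0.556. Erbb2 had a log2 fold change of -4.72 (SE 1.7, adjusted p = 0.193). With single libraries left out it ranged from -9.34 to -3.99 and the adjusted p from 0.00621, without replicate 2 of PMN IRI RIPC, to 0.474. Hbegf and Egfr had log2 fold changes of -3.79 (adjusted p = 0.214) and -3.14 (adjusted p = 0.126), and Met one of -1.12 (adjusted p = 0.922).

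**Figure D3:**
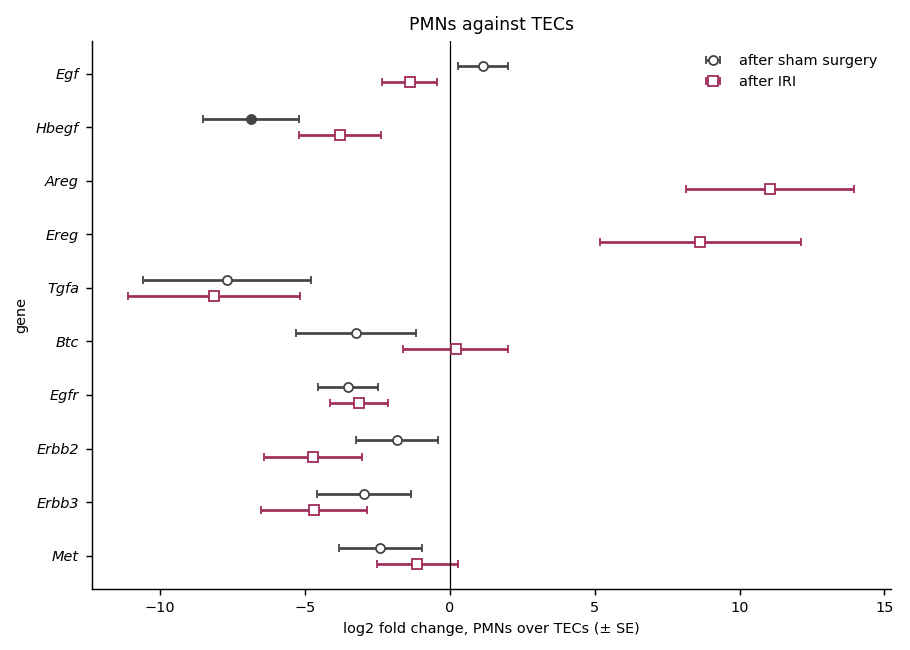
Log2 fold change of PMNs over TECs (x axis, with standard errors) for each gene (y axis), after sham surgery and after IRI. Filled points passed an adjusted p of 0.05, and the 1 filled point is Hbegf after sham surgery at -6.86. Areg and Ereg after sham surgery are not drawn because their standard errors, derived from the F statistic, were too large to show.

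The next comparison asked whether the ligands and receptors of the tubule changed with injury. In TECs no gene of the 10 passed the threshold for IRI against sham surgery, where 1.4% of all genes tested did. None of the 8 genes tested reached an unadjusted p of 0.05, as 15.0% of all genes did, and the Wald test of DESeq2 called 0. Areg and Ereg did not pass the filter on low counts there. Hbegf averaged 156.8 ± 155.8 CPM after IRI (n = 5) and 88.9 ± 60.1 CPM after sham surgery (n = 6), a log2 fold change of 0.67 (SE 0.602, adjusted p = 0.666), and 0.03 without replicate 3 of TEC IRI RIPC. Without that library 0 of the 10 genes were called as well. Erbb3 had the smallest p-value, with a log2 fold change of -1.27 (SE 0.719, adjusted p = 0.437). Its highest value was in replicate 1 of TEC sham control, and the log2 fold change was -0.42 without that library. Egfr (log2 fold change -0.3, SE 0.67, adjusted p = 0.925) and Met (log2 fold change -0.29, SE 0.609, adjusted p = 0.916) differed by less than their standard errors, and their log2 fold changes were -0.62 and -0.72 without replicate 3 of TEC IRI RIPC. Egf had 77.3 ± 42.6 CPM after IRI and 105.5 ± 127.7 CPM after sham surgery, a log2 fold change of -0.2 (SE 0.635, adjusted p = 0.981), and 0.44 without replicate 1 of TEC sham control. For comparison, the proximal tubule transporter Slc34a1 fell by 2.09 on the log2 scale (adjusted p = 0.0483). The injury marker Havcr1 (kidney injury molecule 1) ranged from 78.4 to 715.7 CPM after IRI and from 0 to 78.9 CPM after sham surgery (log2 fold change 7.23, adjusted p = 0.0536). The median log2 fold change was -0.3 over the 8 genes and 0.15 over all genes tested.

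In PMNs no gene of the 10 passed the threshold for IRI against sham surgery either, where 0.416% of all genes tested did. Egf and Areg had an unadjusted p under 0.05, as had 11.8% of all genes. Of the 10 genes the Wald test of DESeq2 called 1, Areg. It also called many more of all genes than edgeR's test did, in counts given below. This call is therefore not a result about Areg. Areg averaged 12.1 ± 11.2 CPM after IRI and 5.42 ± 9.93 CPM after sham surgery, a log2 fold change of 5.6 (SE 2.05, adjusted p = 0.398), and its ranges overlapped. Both sham control libraries were at 0 and the fold change averages RIPC and control, so its size does not follow these means. In the RIPC groups Areg averaged 14.8 CPM after IRI and 9.03 CPM after sham surgery. The exact permutation test gave p = 0.135. Hbegf averaged 17.8 ± 18.0 CPM after IRI and 1.11 ± 2.1 CPM after sham surgery, a log2 fold change of 3.76 (SE 2.11, adjusted p = 0.475), with an exact permutation p = 0.0476 that is not adjusted for the 40 permutation tests run. With single libraries left out this fold change ranged from 0.64, without replicate 2 of PMN IRI control, to 6.74, without replicate 1 of PMN sham control. Egf had a log2 fold change of -2.74 (SE 1.16, adjusted p = 0.413), which shrank to -0.15 without replicate 2 of PMN sham control. Umod had a log2 fold change of -2.44 (SE 1.19, adjusted p = 0.415) in the same comparison. Erbb2 and Erbb3 had log2 fold changes of -3.77 (adjusted p = 0.504) and -2.99 (adjusted p = 0.648), and Met one of 1.02 (adjusted p = 0.914). The proximal tubule and the monocyte and macrophage markers of the PMN libraries were lower after IRI, in the ranges given above, and their part in these values was not tested. The median log2 fold change was 1.02 over the 9 genes tested and -0.01 over all genes.

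**Figure D4:**
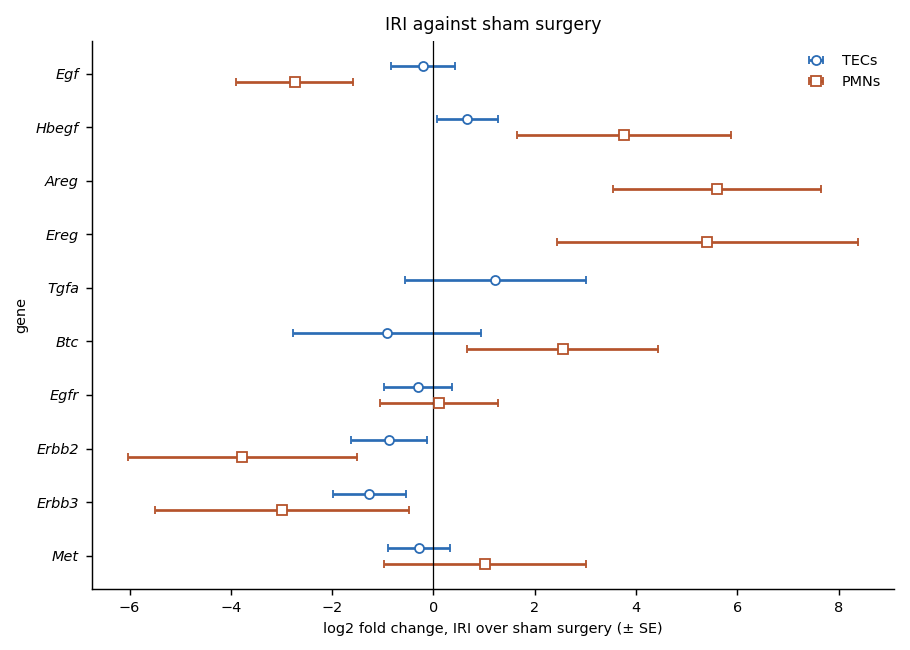
Log2 fold change of IRI over sham surgery (x axis, with standard errors) for each gene (y axis), in PMNs and in TECs. All points are open, since none passed an adjusted p of 0.05, and Areg and Ereg in TECs and Tgfa in PMNs were not tested.

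The effect of IRI did not differ detectably between PMNs and TECs for any of the 10 genes (smallest p 0.0635, smallest adjusted p 0.558, edgeR), where 0.0% of all genes were called, and the Wald test of DESeq2 called 0.

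RIPC was compared with control after each operation. In TECs no gene of the 10 passed the threshold after sham surgery (adjusted p 0.708 to 1.0, edgeR; 0.0% of all genes called) or after IRI (adjusted p 0.778 to 1.0; 0.00386% of all genes called), none had an unadjusted p under 0.05 (4.53% and 4.35% of all genes), and DESeq2 called 0 with either test. After IRI the RIPC libraries of Tgfa (0 to 14.1 CPM against 17.0 and 22.5 CPM) and Btc (0 to 0.577 CPM against 1.97 and 11.8 CPM) all lay below the control libraries. These were 2 of the 8 genes tested, against 8.97% of all genes tested. Hbegf after IRI was at 118.4, 33.9 and 427.7 CPM with RIPC and at 125.5 and 78.7 CPM without, so that the control libraries lay inside the range of the RIPC libraries. Egfr and Met overlapped in the same way.

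In PMNs no gene of the 10 passed the threshold for RIPC after sham surgery (edgeR, smallest adjusted p 0.705; 0.004% of all genes called) or after IRI (adjusted p 0.992 to 1.0; 0.0% of all genes called). After sham surgery Areg and Egf had an unadjusted p under 0.05, as had 4.6% of all genes, and after IRI 0 of the 10 and 2.72% of all genes had. Areg was at 0 in both control libraries and at 4.21, 22.9 and 0 CPM with RIPC, a mean at least 34-fold above the limit of 6 added reads per control library (adjusted p = 0.705, edgeR). Of the 10 genes the Wald test of DESeq2 called Areg alone, with an adjusted p of 0.00491, and apeglm called 0. Both called many more of all genes than edgeR's test did, in counts given below. The Wald call is therefore not a result about Areg. The Areg groups overlapped at 0. Egf had a log2 fold change of -3.79 (SE 1.58, adjusted p = 0.705), which turned to 1.31 without replicate 2 of PMN sham control. Btc had RIPC libraries above both control libraries, 1 of the 9 genes tested against 4.7% of all genes tested. However, 1 of these RIPC libraries was at 0.0991 CPM, below the limit. The interaction of RIPC and surgery in edgeR's test called 0 of the 10 genes in TECs (adjusted p 0.838 to 1.0) and 0 in PMNs. Areg in PMNs was the 1 gene with an unadjusted p under 0.05 there (log2 difference -9.84, SE 3.95, adjusted p = 0.719). DESeq2's Wald test called 0 in both, and 0.0% of all genes were called.

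Further genes of the pathway were followed in a list of 43, comprising other ligands and receptors, shedding enzymes, adaptors, feedback and degradation factors and targets. In TECs 0 of 41 tested genes were called for IRI, against 1.4% of all genes, with a median log2 fold change of 0.71 over the list and 0.15 over all genes. In PMNs 1 of 38 rose and 0 fell, against 0.416% of all genes called. This was Ier3, an immediate early response gene, which had 129.8 ± 128.5 CPM after sham surgery and 1453.0 ± 521.9 CPM after IRI (n = 5 each; log2 fold change 3.46, SE 0.465, adjusted p = 0.0255, edgeR). Its libraries did not overlap between the operations (3.47% of all genes were higher without overlap). The call was lost without replicate 1, 2 or 3 of PMN IRI RIPC (adjusted p 0.0641, 0.0865 and 0.0678), and in the control groups alone the log2 fold change was 2.18 (adjusted p = 0.736). The median over the list in PMNs was 0.81, and over all genes -0.01. In TECs Ier3 had a log2 fold change of 2.66 (SE 0.729, adjusted p = 0.0993).

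Between the cell types, Errfi1, which encodes a feedback inhibitor of the EGF receptor, was lower in PMNs after both operations. It averaged 133.3 ± 74.8 CPM in PMNs and 1304.7 ± 617.2 CPM in TECs after sham surgery (log2 fold change -3.26, SE 0.534, adjusted p = 0.00114, edgeR), and 152.7 ± 63.0 and 1122.4 ± 588.5 CPM after IRI (log2 fold change -3.01, SE 0.537, adjusted p = 0.00304). It was the 1 gene of 42 tested that was called after sham surgery, where 2.62% of all genes were. After IRI, where 2.67% of all genes were called, 3 of the 42 were, the others being Ptpn1, a tyrosine phosphatase, which was higher in PMNs (336.6 ± 75.9 against 32.2 ± 22.0 CPM, log2 fold change 3.42, adjusted p = 0.00672), and Ier3 (log2 fold change 3.22, adjusted p = 0.0214). Neither Ptpn1 nor Ier3 was called without replicate 2 of TEC IRI control (adjusted p = 0.0963 for both, edgeR), and the log2 fold change of Ier3 was 4.0 without replicate 3 of TEC IRI RIPC. No gene of the list was called for RIPC, for the interaction or for the difference of the IRI effect.

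Of the other ligands, Epgn was at 0 in all 21 libraries. Nrg1, a ligand of Erbb3 and Erbb4, had 22.4 ± 13.7 CPM in PMNs (n = 10) and 18.1 ± 9.96 CPM in TECs (n = 11). The means of Nrg2, Nrg3 and Nrg4 were 0.552, 6.89 and 4.06 CPM in PMNs and 0.418, 4.05 and 4.31 CPM in TECs. Erbb4 had 12.7 ± 15.7 CPM in PMNs and 2.42 ± 1.81 CPM in TECs. Hgf, the ligand of Met, had 12.8 ± 8.6 CPM in TECs after IRI and 1.8 ± 2.71 CPM after sham surgery (log2 fold change 2.79, SE 1.73, adjusted p = 0.496, edgeR), so that the difference did not pass the test. Fibroblast and pericyte markers (4 genes) summed to between 0 and 7.37 CPM in TECs after sham surgery and to between 5.54 and 39.8 CPM after IRI, and endothelial markers (5 genes) to between 2.14 and 67.9 CPM and between 5.72 and 230.4 CPM. Their part in the Hgf values was not tested.

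Genes with the pattern most like each member were ranked by Pearson's r of log2(CPM + 1) over the libraries of 1 cell type. These libraries share group, depth and cell makeup, and the values are given as a description. Over the 11 TEC libraries, among 18664 genes, Egf was most like Gm16124 (r = 0.83), Umod (r = 0.821) and Cyp2a5 (r = 0.82). Hbegf was most like Maff (r = 0.905) and Junb (r = 0.883), both genes of transcription factors induced early after stimulation, and Gm7008 (r = 0.881). Gm16124 and Gm7008 are antisense genes, whose reads cannot be told apart from those of a partner gene without strand. For Egfr the genes were Herpud2, Setd6 and Phrf1 (r = 0.862, 0.852 and 0.846), and for Met they were Hist1h4h, Ang and Zfp229 (r = 0.874, 0.873 and 0.844). For Erbb2 they were Cyp2d9, Eef1akmt4 and Abhd17a (r = 0.918, 0.911 and 0.899), and for Erbb3 Vwce, Lonrf2 and Zbtb45 (r = 0.886, 0.879 and 0.86). Over the 10 PMN libraries, among 19730 genes, Egf was most like Sdhc (r = 0.969), Mrps24 (r = 0.934) and Klrk1 (r = 0.929), and Umod ranked 37 with r = 0.845. Areg was most like Ifih1 (r = 0.94), Vps28 (r = 0.916) and Ppif (r = 0.903), and Hbegf like Zcchc2 (r = 0.979), Dmbt1 (r = 0.944) and Nfatc3 (r = 0.931).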

How the data were processed

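The authors trimmed the single-end reads of 50 bases with Trim Galore 0.6.4 and quantified transcripts with Salmon 1.0.0, per the labels on mm10. The deposited estimated counts per transcript are not normalized, and the deposited TPM values are scaled by Salmon for transcript length and library size. The authors' effective lengths were not used for tests. All deposited columns belong to a labelled library.

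The estimated counts of the 2 files of a library were added, summed per gene with the Gencode M21 annotation of GRCm38 (the study names vM23) and rounded to whole numbers. Of 140748 transcripts, 884 had no gene match and held 0.139% to 0.255% of reads. Genes of the sex chromosomes and the mitochondrion were left out. Counts were tested with edgeR 4.0.16 (quasi-likelihood test, TMM, filterByExpr, 1 mean per group; limma 3.58.1, R 4.3.3) at an adjusted p of 0.05. PMNs and TECs were fitted separately, and together for comparisons between them. IRI was compared with sham surgery as the average over RIPC and control. CPM used TMM-normalized library sizes.

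The 10 members, the lists and the tests were chosen with earlier results of these data known. Named genes were the members, the other ligands and receptors of the pathway list, its genes past the threshold, and the 3 genes most correlated with a member. Slc34a1, Havcr1 and Umod were named as markers. Alternatives were other size factors, filters, single files, robust dispersions, the replicate number as a block, single libraries left out, RIPC or control groups only, the compared groups only, exact permutation tests, and DESeq2 1.42.0 with the Wald test or with apeglm 1.24.0 (s value under 0.01, the test of the study). Fits that pooled RIPC with control and the permutation tests between cell types were added after seeing the data. On simulated counts edgeR recovered the changed genes at a low dispersion. At a dispersion nearer to that of these libraries it called few of them in TECs and none in PMNs. The simulation gave every gene the same dispersion, so it does not measure the power in these data. A missing call does not show that levels were equal.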

Additional observations from a re-analysis of the deposited data

How the results depend on the processing

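The spread between libraries of a group was wide, with biological coefficients of variation of 1.54 in TECs and 1.65 in PMNs, and groups of 2 or 3 libraries limit which differences are called. Genes at 0 allow up to 6 added reads.

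The labels do not say that a replicate number marks a shared mouse. Deviations of same-numbered libraries correlated at -0.0895 to 0.11 over 28 pairs within a cell type and at -0.0109 to 0.0196 over 10 pairs of a PMN and a TEC library, and the libraries were treated as unpaired. With the replicate block the counts over all genes became 3 (RIPC after IRI, TECs), 23 (IRI, PMNs) and 0 (RIPC after sham surgery, PMNs), and no call on the 10 genes changed. The adjusted p for Ier3 in PMNs after IRI became 0.0842.

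All genes called for IRI in TECs numbered 363, and 1 in control groups only, 25 in RIPC groups only, 1289 without a filter and 2234 with the Wald test of DESeq2. For IRI in PMNs they numbered 104, and 0 in control groups only, 62 in RIPC groups only, 971 without a filter, 1942 with the Wald test and 297 with RIPC and control pooled. For RIPC after sham surgery in TECs the count of 0 became 54 without a filter, 430 with the Wald test and 62 with apeglm. After IRI in TECs the count of 1 became 71, 701 and 246, and 2 with the first file, 4 with robust dispersions and 0 in the compared groups only. In PMNs after sham surgery 1 became 139, 817 and 528, and 0 with the second file or the compared groups only, and after IRI 0 became 18, 426 and 40. The interaction counts of 0 became 84 and 600 in TECs and 101 and 657 in PMNs without a filter and with the Wald test. PMNs against TECs gave 832 after sham surgery (2222 and 4753) and 847 after IRI (1763 and 3725). The difference of the IRI effect gave 0, and 722 without a filter, 2395 with the Wald test, 1 with the stricter filter or either single file, 5 with robust dispersions and 29 pooled. The cause of these shifts was not tested.

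Of the 10 genes, 1 was called without a filter for IRI, for RIPC after sham surgery and for the interaction in PMNs, and 1 with the Wald test in the first 2 of these. PMNs against TECs after sham surgery called 2 without a filter, 2 with the stricter filter, 2 pooled and 3 with the Wald test. After IRI it called 5 without a filter, 1 with the first file, 1 pooled and 6 with the Wald test. Without a filter and with the Wald test many more of all genes were called too, in the counts given above. For PMNs against TECs no count over all genes is given with the stricter filter, the first file or pooling. None of these member counts is therefore a result about the 10 genes. Log2 fold changes turned for Egf (0.43 in RIPC groups only), Hbegf (-0.17 in control groups only) and Btc (2.0 in control groups only, 0.38 pooled) with IRI in TECs, and for Btc (-1.31 in RIPC groups only) and Egfr (-0.19 in control groups only) with IRI in PMNs. Btc between cell types after IRI turned to -1.11 pooled and -0.28 as the mean difference of log2(CPM + 1). By CPM in place of TPM, the rank in TECs became 6 for Erbb2, 5 for Erbb3 and 4 for Met, and in PMNs 3 for Areg, 5 for Egfr, 6 for Erbb2 and 2 for Met.

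With single libraries left out, all genes called ranged from 92 to 714 (IRI, TECs), 13 to 393 (IRI, PMNs), 0 to 6 and 0 to 22 (RIPC after sham surgery and IRI, TECs), 0 to 11 (RIPC after sham surgery, PMNs), 0 to 15 (interaction, TECs), 549 to 1276 and 560 to 1202 (PMNs against TECs after sham surgery and IRI) and 0 to 124 (difference of the IRI effect). The 10 genes gave 0 to 2 and 0 to 1 calls between cell types. Log2 fold changes that turned ranged from -0.56 to 0.44 (Egf), -3.57 to 1.5 (Btc) and -0.62 to 0.08 (Egfr) for IRI in TECs, from -0.68 to 0.97 (Egfr) and -0.52 to 4.07 (Met) for IRI in PMNs, from -4.81 to 1.31 (Egf) for RIPC after sham surgery in PMNs, from -1.44 to 1.83 (Egf) between cell types after sham surgery and from -2.11 to 2.8 (Btc) after IRI.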
